A study of Drosophila melanogaster with 16 samples.

Results

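The change from the L2 (second) to the L3 larval stage was followed in the control midgut of Drosophila melanogaster by comparing day 4 with day 3 over every gene counted. The 4 libraries of day 4 (early L3, 10 midguts each) were set against the 4 of day 3 (late L2, 30 midguts each), with days counted from egg laying. Of 17873 genes in the count table, 9801 passed the filter on low counts and were tested, in a single model fitted to all 16 libraries of the series. Both control groups carried mex-GAL4, a driver of the yeast activator GAL4 in enterocytes, inherited from the mother, and the attP40 insertion site with nothing inserted, inherited from the father, so the controls expressed GAL4 but no hairpin. The 8 other libraries came from larvae of the same driver with a UAS hairpin against Hnf4, a nuclear receptor gene (Hnf4i), on the same days. All larvae were fed yeast alone. Age, instar, time since the molt and the number of midguts pooled changed together between the days, so their parts in any difference cannot be told apart.

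The larval midgut is a tube of large absorptive and secretory enterocytes with scattered enteroendocrine cells and adult midgut precursors, wrapped in visceral muscle and fed by tracheae. Enterocytes do not divide during larval life but grow by endoreplication, repeated rounds of DNA synthesis without mitosis, which calls for a large supply of ribosomes. Between the instars a pulse of the steroid ecdysone drives the molt, when cuticle-secreting epithelia such as the tracheae, foregut and hindgut build a new apical matrix and cuticle beneath the old one. The midgut itself bears no cuticle but a chitin-containing peritrophic matrix, through which digestion products reach the brush border.

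Depth ranged from 52239342 to 59261868 counts per control library of day 3 and from 50906793 to 83418453 per control library of day 4. The first principal component of the 8 control libraries carried 81.8% of the variance and separated the days, and the second, with 3.7%, spread the day 4 libraries from -22.38 (replicate 1) to 30.84 (replicate 3). Values per library are given as TMM-scaled CPM, the count of a gene relative to its library size corrected for composition. Levels are compared between genes mainly as TPM, which also divides by exon length. The few rankings in CPM are not corrected for length. Enterocyte identity markers were present on both days, and 3 of 6 rose, their summed share of counts going from 0.323 ± 0.026% to 0.589 ± 0.0546%. The 3 that rose are secreted proteases, betaTry, Jon25Bi (1119.6 to 3642 CPM) and iotaTry, while mex1, the gene whose promoter gives the driver, stood at 353 CPM on day 3 and 361 CPM on day 4, the POU factor nub at 58.6 and 52.7 CPM, and neither was called. Markers of copper and iron cells rose in 4 of 6 cases, from 0.381 ± 0.0207% to 0.778 ± 0.0378% of counts, with Fer1HCH, the ferritin heavy chain, at 1384.5 CPM on day 3 and 3790.1 CPM on day 4. The Hox gene lab, also on this list, was not called. MtnA is counted again among the metal handling genes below, so these lists are not independent. Replicate 3 of day 4 carried larval serum protein transcripts of the fat body, so that fat body markers held 0.0127% of its counts against 0.00217 to 0.00327% in the other day 4 libraries, and the lists described below whose count in a direction moved by 2 genes or more without it are given with both counts. Hnf4 itself was at 91.9 ± 2.69 CPM on day 3 and 128 ± 4.09 CPM on day 4 (SD, n = 4) in these controls, a log2 fold change of 0.47 ± 0.05 (SE), below the fold minimum.

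Between the days 1668 genes rose and 2176 fell, 17.0% and 22.2% of the genes tested, and 5957 were not called. A gene was called by edgeR's quasi-likelihood test at an adjusted p under 0.05 with a log2 fold change of at least 0.5 in size, the threshold of the study. For 3608 of the 3844 called genes the 4 libraries of one day lay wholly above the 4 of the other. Large falls outnumbered large rises: 569 genes fell at least 4-fold and 219 at least 16-fold, against 207 and 40 that rose as much. In bulk tissue, fewer cells of a type and less RNA per cell cannot be told apart. In counts the balance lay the other way. The genes that rose took 25.5% of all counts on day 3 (25.2 to 25.8% over the libraries) and 44.9% on day 4 (43.5 to 46.0%), while the genes that fell went from 14.3% to 5.97%. Genes not called went from 60.2% to 49.1%. Because genes were sorted by their change in these same counts, only the sizes of the shares that rose and fell are informative.

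These counts depend on how libraries are scaled. TMM factors were 1.07 to 1.08 on day 3 and 0.864 to 0.883 on day 4. Scaled to library totals alone, the median gene shifted by -0.29 on the log2 scale, 901 genes rose and 3361 fell, so that 21.1% of called genes rose instead of 43.4%. All 901 were among the 1668, all 2176 fell in both, and no gene was called in opposite directions. Of the genes named below as rising, Peritrophin-15a, Tpi, Gp93, Pdi, CCHa2, Tsp2A, srp and CG13202 were not called under library totals, with log2 fold changes of 0.29, 0.35, 0.48, 0.46, 0.43, 0.24, 0.25 and 0.45. A list described below has its count under library totals beside it where that count differs by 2 genes or more in a direction.

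**Figure D1:**
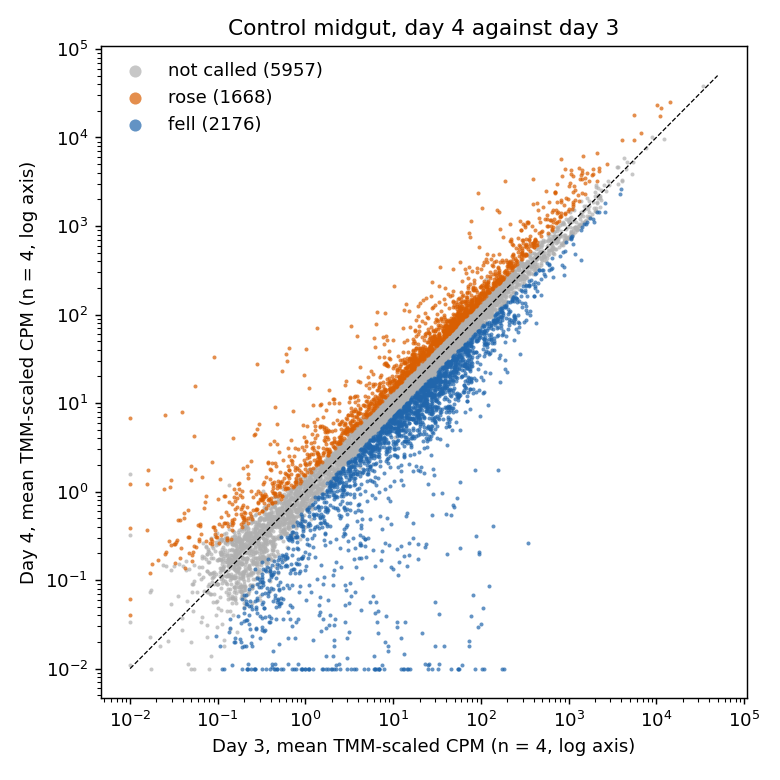
Mean level of each of the 9801 genes tested on day 3 (x axis) and day 4 (y axis) in control midguts, in TMM-scaled CPM on log axes, with means below 0.01 CPM drawn at 0.01. Orange points are the 1668 genes that rose and blue points the 2176 that fell, and the points along the bottom edge are genes at or near 0 on day 4, among them Osi20 at 181 CPM on day 3.

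The most abundant transcripts per length were the same on the 2 days but for 1 place. The 5 highest genes on day 3 were mt:lrRNA, the mitochondrial large ribosomal RNA, at 41790 TPM, the Jonah serine proteases Jon25Biii, Jon65Aiv and Jon99Cii, and the related protease gene CG18180, and on day 4 the lysozyme gene LysD at 17074 ± 433 TPM stood in place of Jon99Cii. The 10 largest gains in TPM were of proteases, lysozymes and the acyl-CoA binding protein gene Acbp6, which went from 917 to 6036 TPM. Jon65Aiv was at 6079, 6081, 4723 and 5116 CPM in the day 3 libraries and at 16592, 16492, 18657 and 20209 CPM in those of day 4. Every day 4 library stood far above the highest of day 3, and the fold change of Jon65Aiv was 1.71 ± 0.19 on the log2 scale (adjusted p = 4.34e-07). CG18180 rose from 10297 ± 243 to 23181 ± 978 CPM, Jon25Biii from 11356 ± 514 to 21665 ± 927 CPM and Jon66Ci from 4026 ± 464 to 9389 ± 494 CPM. CG18179, the neighbour of CG18180, had the largest fold of these, from 824 ± 70.6 to 5732 ± 309 CPM.

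Among genes called, the largest losses in TPM were of housekeeping genes that remained abundant: the ribosomal protein genes RpL41, sta, RpS2, RpL4 and RpLP0, sesB, the mitochondrial ADP/ATP carrier, Cyt-c-p, cytochrome c, awd, a nucleoside diphosphate kinase, and Hsc70-4, the main cytosolic Hsp70. RpL41 went from 9514 ± 270 to 4614 ± 264 TPM and sesB from 3161 ± 84.6 to 1614 ± 191 TPM. Their folds were small, from -0.52 (RpL4) to -0.86 (sta) on the log2 scale, and none of their day 3 libraries overlapped with those of day 4. TPM is scaled to the summed length-divided counts of a library, without TMM. It thus carries a composition shift too, which need not equal that of library totals.

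The genes that make ribosomes fell together. RNA polymerase I transcribes the ribosomal RNA precursor, and all 8 of its tested subunit and initiation genes fell, with a median log2 fold change of -2.29 against 0.01 over all genes. Polr1A, the largest subunit, was at 95, 96.9, 109 and 102 CPM on day 3 against 18.1, 21.3, 16.2 and 22.3 CPM on day 4. All 30 tested nucleolar genes of ribosome assembly fell too, with the same median. Fib, fibrillarin, which methylates ribosomal RNA, was at 139, 146, 193 and 175 CPM on day 3 against 15.1, 16.8, 14.9 and 22.8 CPM on day 4 (log2 fold change -3.23 ± 0.19, adjusted p = 2.55e-10). The days did not overlap, and replicates 3 and 4 were the highest of day 3. Its partners in box C/D particles, nop5 and Nop56, fell from 197 to 22.3 CPM and from 188 to 23.9 CPM. The list took 0.273 ± 0.0208% of all counts on day 3 and 0.0515 ± 0.00458% on day 4. By an exact two-sided permutation test p was 0.0286, the smallest that 4 libraries against 4 allow. Adjusted over the 8 shares given with a p it was 0.0327. The same test, run on the share of every list, gave that smallest p for most, so it does not set these shares apart.

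Small nucleolar RNAs, the guides for modification of ribosomal RNA, moved the same way. Of 76 that passed the filter, out of 269 in the table, 48 fell and 1 rose (58 and 1 under library totals, and 40 and 1 of 91 without replicate 3 of day 4), with a median of -1.73 and a range from -6.43 to 1.95. Most are encoded in introns of host genes, are not polyadenylated when mature, and several are near-identical copies, so their counts in polyA libraries can hold unspliced host transcript and are uncertain. The hosts themselves fell: Uhg2 from 17.4 ± 3.32 to 2.63 ± 0.859 CPM, Uhg4 from 13.4 ± 3.06 to 2.47 ± 0.478 CPM and Uhg5 from 26.9 ± 4.25 to 5.46 ± 0.391 CPM. These hosts were picked after their values were seen, from the runs of neighbouring genes described below.

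Myc, the transcription factor that drives growth and ribosome production, fell as well, and its antagonist rose. Myc was at 77.5, 69.9, 77.2 and 66.6 CPM on day 3 against 18.3, 16.8, 17.7 and 18.5 CPM on day 4. Mnt, which competes with Myc for the partner Max and represses, was at 33.8, 34.5, 27.7 and 29.8 CPM on day 3 against 78.2, 76.4, 104 and 88.7 CPM on day 4. Neither gene's days overlapped, and the log2 fold changes were -2.03 ± 0.14 (adjusted p = 1.25e-09) and 1.46 ± 0.10 (adjusted p = 2.17e-09). Max fell from 12.0 to 8.10 CPM, while the sugar-sensing relatives Mondo and bigmax were not called.

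Mitochondrial ribosomes and protein folding followed. Of 72 mitochondrial ribosomal protein genes 70 fell and none rose (median -1.23), and the list went from 0.384 ± 0.0173% to 0.144 ± 0.0118% of counts (exact permutation p = 0.0286, adjusted 0.0327). All 8 subunits of the CCT chaperonin, the ring that folds actin and tubulin, fell within a narrow range of log2 fold changes, -1.23 to -1.46: CCT1 from 228 ± 9.14 to 83.0 ± 4.33 CPM and CCT3 from 268 ± 12.6 to 99.1 ± 5.22 CPM. Of the aminoacyl-tRNA synthetases, which charge tRNAs, 17 of 18 cytosolic and 13 of 15 mitochondrial genes fell. Of 18 genes of nucleotide synthesis 11 fell (14 under library totals), among them ras, which encodes IMP dehydrogenase of guanine nucleotide synthesis, from 92.2 ± 4.65 to 24.1 ± 2.29 CPM, and RnrL, the large subunit of ribonucleotide reductase, from 58.0 ± 3.25 to 27.1 ± 3.31 CPM.

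Cytosolic ribosomal proteins had a median log2 fold change of -0.43, against -2.29 for the nucleolar genes that assemble them. Of 81 tested, 16 fell past the fold minimum, 19.8% beside the 22.2% of all genes, and none rose, with 80 falling under library totals. As a share of counts the list went from 10.2 ± 0.249% to 6.13 ± 0.146% (exact permutation p = 0.0286, adjusted 0.0327). Translation factors were similar, with 20 of 43 falling and 1 rising (41 and 0 under library totals). eIF6, which holds the large subunit back from joining until it is mature, had the largest fall among them with at least 10 CPM, from 75.2 ± 5.51 to 23.2 ± 2.30 CPM. The proteasome, the protease that degrades tagged proteins, stood apart from this group: none of 31 genes was called in either direction under TMM or library totals. Its median log2 fold change was 0.24, while its share, taken against library totals, was 0.375 ± 0.0115% on day 3 and 0.360 ± 0.00722% on day 4, overlapping between days (exact permutation p = 0.0857, adjusted 0.0857).

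**Figure D2:**
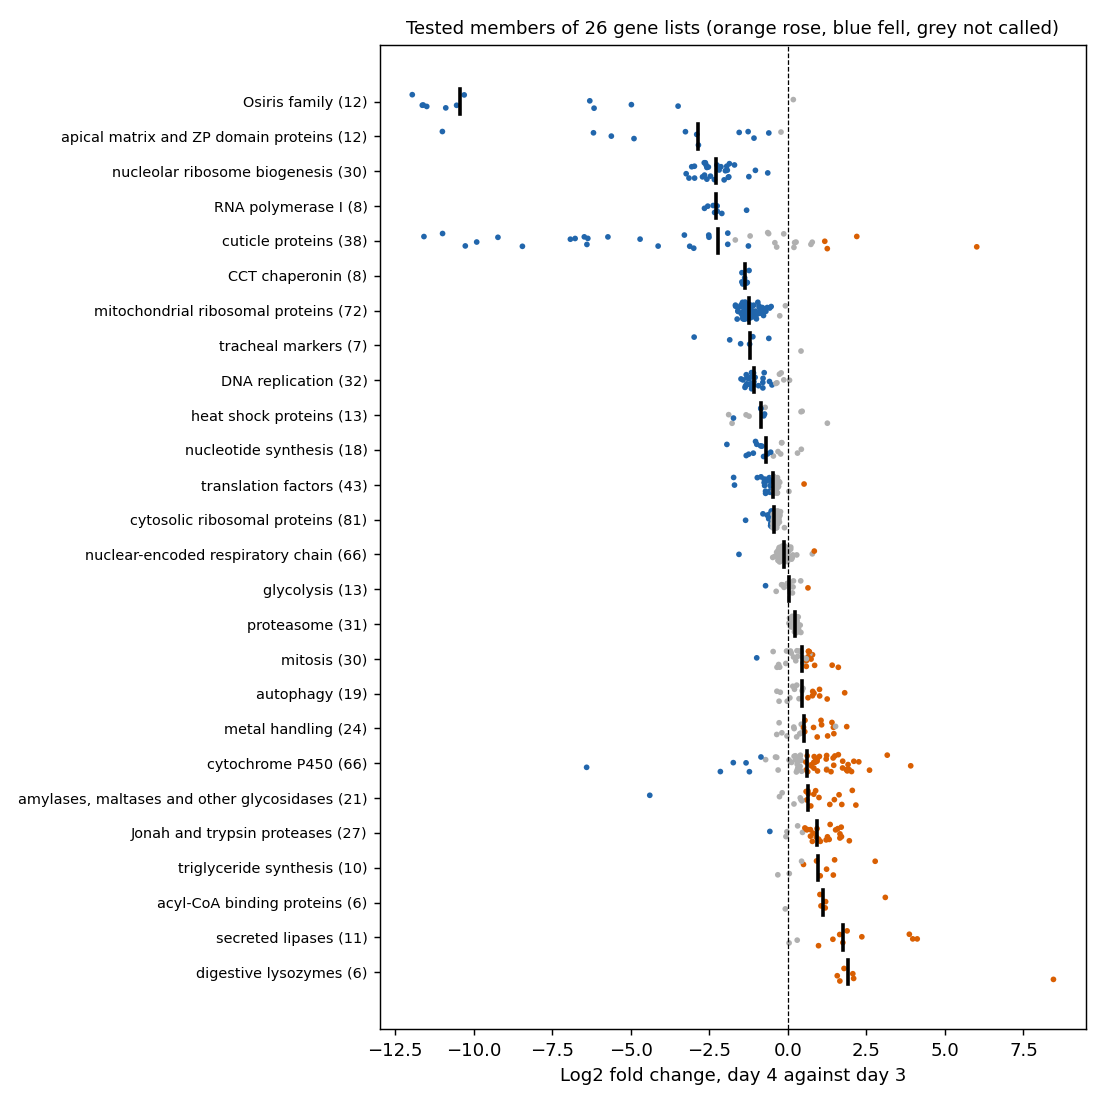
Log2 fold change, day 4 against day 3, of every tested member of 26 gene lists (1 point per gene), with the list median as a black bar and the median of all genes, 0.01, as a dashed line. Genes at 0 in all libraries of a day are drawn at the lower bound of their fold, grey points were not called, and the lists run from those that fell at the top (Osiris, nucleolar and RNA polymerase I genes) to those that rose at the bottom (lipases and lysozymes).

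DNA replication genes and mitotic genes parted. Of 32 replication genes 26 fell and none rose (30 fell under library totals), with a median of -1.08. PCNA, the sliding clamp, was at 37.3, 34.5, 42.4 and 41.5 CPM on day 3 against 21.1, 18.9, 14.7 and 16.8 CPM on day 4, and the helicase subunits Mcm2, Mcm3 and Mcm5 fell from 16.3, 19.2 and 14.1 CPM to 6.60, 7.13 and 5.68 CPM. E2f1 and Dp, the transcription factor pair of S phase genes, were at 102 and 69.3 CPM on day 3 and 106 and 63.5 CPM on day 4 and were not called. Of 30 mitosis genes, all but a few below 5 CPM, 11 rose and 1 fell under TMM, 8 and 1 without replicate 3 of day 4, and 3 and 5 under library totals, so the direction of that list rests on the scaling. aurA, the Aurora A kinase, and thr, a separase component, were among the 11, at 0.130 and 0.347 CPM on day 3 and 0.404 and 0.928 CPM on day 4. These 2 were chosen after their values were seen.

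Most tested genes of cuticle and apical matrix fell, and the Osiris genes as a family were almost silent on day 4. The Osiris genes encode insect-specific transmembrane proteins of cuticle-forming cells, and 11 of 12 tested fell, with a median of -10.89 (-10.42 when genes at 0 in every day 4 library are set at their lower bound). Osi20 was at 95.7, 194, 233 and 203 CPM on day 3 against 0 in all 4 libraries of day 4, at least 3175-fold lower on day 4. Osi15, the highest in CPM, was at 166, 371, 438 and 413 CPM on day 3 against 0.200, 0.375, 0.213 and 0.268 CPM on day 4. Replicate 1 was lowest on day 3 in both, and the family's share of counts over the day 3 libraries ran 0.0558, 0.0976, 0.128 and 0.125% (mean 0.102 ± 0.0336%, against 0.000206% on day 4, exact permutation p = 0.0286, adjusted 0.0327).

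Of 38 tested structural cuticle proteins 22 fell, 4 rose and 12 were not called (median -2.21, largest rise 6.02 on the log2 scale). Ccp84Ae was at 219, 132, 180 and 169 CPM on day 3 against 0 on day 4, at least 3061-fold lower on day 4, and Cpr64Ab at 40.0, 56.5, 58.5 and 63.6 CPM on day 3 against 0 on day 4, at least 956-fold lower. Several members, such as the Ccp84A and Lcp65A genes, are close copies in tandem, so the reads between them are uncertain. Genes of apical extracellular matrix, whose zona pellucida domain proteins tie epithelia to the cuticle, fell in 11 of 12 cases (median -2.87), with dyl (dusky-like) at 15.2, 19.1, 34.0 and 24.9 CPM on day 3 against 0, 0, 0 and 0.0446 CPM on day 4.

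Chitin enzymes held rising and falling members. Cht5 and Cht7, chitinases of the molt, fell from 23.4 ± 6.14 to 0.255 ± 0.266 CPM and from 24.7 ± 4.00 to 1.22 ± 0.421 CPM, and the tracheal chitin deacetylases serp and verm fell from 21.3 to 7.58 CPM and from 32.5 to 9.08 CPM. Cht4 and Cht9 rose, Cht4 from 700 ± 22.5 to 2348 ± 226 CPM. In all 5 of 17 chitin enzymes rose and 8 fell. obst-A, a chitin-binding organizer of cuticle, fell from 14.6 ± 4.41 to 0.579 ± 0.257 CPM, while Peritrophin-15a, a component of the peritrophic matrix, rose from 1527 ± 113 to 2284 ± 75.4 CPM. Among 21 tested mucins and peritrophins 6 rose and 9 fell (2 and 9 under library totals), and Muc96D, a mucin gene among the most abundant of them, was at 4293 ± 394 and 5867 ± 472 CPM and was not called. The last was chosen after its values were seen, as was Cht9.

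Tracheal markers mostly fell too, but their list is not independent of this group, since serp and verm are the chitin deacetylases given above. Of 7 tracheal markers 6 fell and none rose, and their summed share was 0.0123 to 0.0193% of counts on day 3 and 0.00323 to 0.00532% on day 4. btl, the FGF receptor that defines tracheal cells, was at 3.74 CPM on day 3 and 5.02 CPM on day 4 and was not called, while trh, the tracheal determinant, fell from 6.86 to 2.96 CPM. The part of attached tracheae or of foregut and hindgut tissue in the fall of the cuticle genes was not tested.

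A further way to see the group is by detection. Requiring at least 5 CPM in all 4 libraries of a day and at most 0.1 CPM in all 4 of the other left 40 genes of day 3 and 1 gene of day 4. Of the 40, 6 are Osiris genes, 4 cuticle proteins, 1 an apical matrix gene (dyl) and 1 an ecdysone response gene (ImpL1), and 28 are on none of those lists. Among the 28 are CG14147 (66.9, 111, 113 and 119 CPM on day 3), CG14095, CG32548 and CG13679, which with Vajk2 were at 0 in every day 4 library and at least 1793, 950, 571, 485 and 259-fold lower on day 4. Replicate 1 was the lowest day 3 library in 23 of the 40 and replicate 2 in the other 17, and the median of the 40 was 16.9, 21.9, 34.8 and 35.5 CPM over replicates 1 to 4. The same held more widely: of 219 genes that fell at least 16-fold, replicate 1 was lowest on day 3 in 119 and replicate 2 in 82. Replicates of day 3 thus differed in how much of this group they held, while all were far above day 4.

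The single gene of day 4 was Snmp1, a CD36-family sensory neuron membrane protein known for pheromone detection. It was at 0.0497, 0.0718, 0.0672 and 0.0313 CPM on day 3 against 14.4, 15.5, 17.0 and 16 CPM on day 4. The 4 libraries of each day lay close together and far from the other day (log2 fold change 8.12 ± 0.27 for Snmp1).

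**Figure D3:**
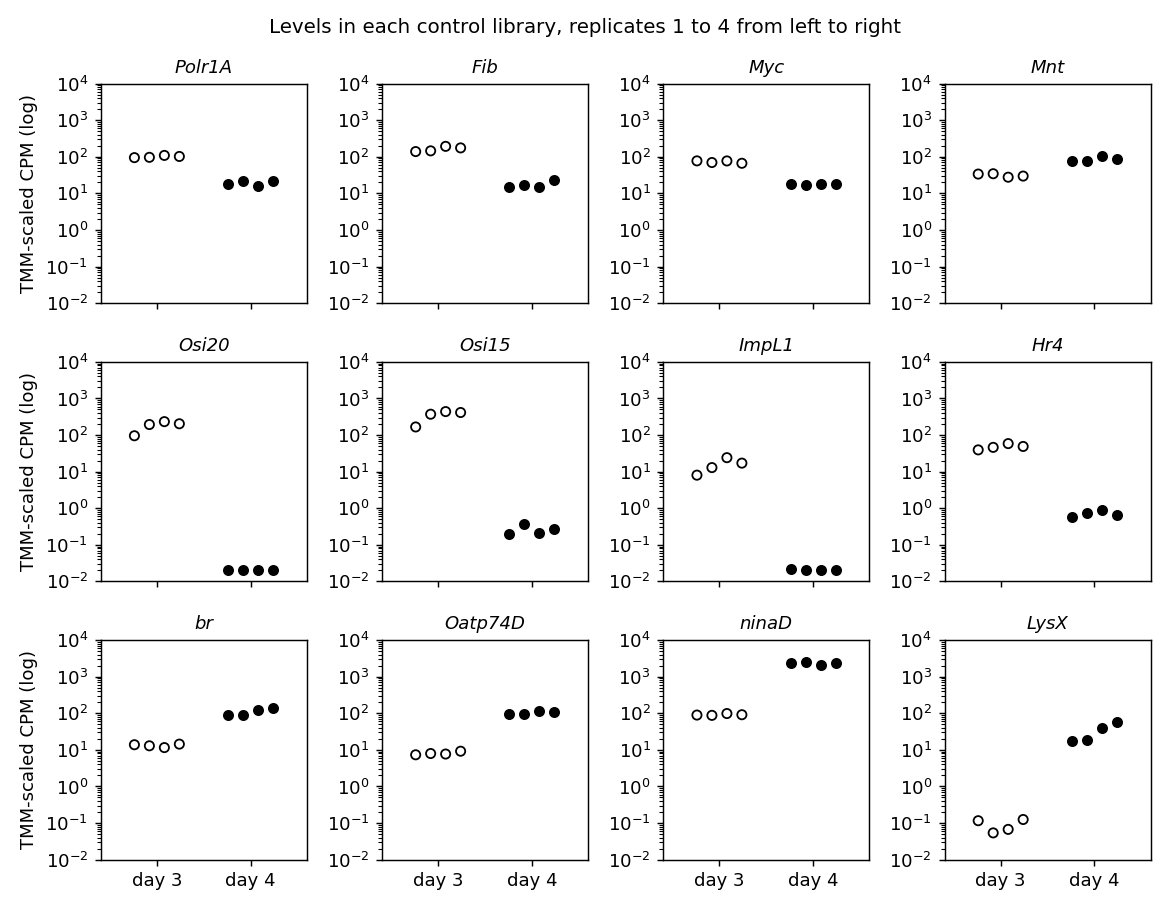
TMM-scaled CPM of 12 genes in each control library (log axis, points are libraries, open circles day 3 and filled circles day 4, values below 0.02 CPM drawn at 0.02). The days do not overlap in any of the 12, replicates 1 and 2 are the lowest day 3 libraries in ImpL1, and the day 4 libraries of LysX spread from 17.7 to 56.5 CPM.

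Position on the chromosome was not used in the comparison and is described here as the direction shared by neighbouring genes. Taking runs of at least 5 neighbouring tested genes all called the same way, 22 runs with 140 genes fell and 15 runs with 91 genes rose. The longest, 17 genes on chromosome 3R from 6198811 to 6347519 (BDGP6), held 11 Osiris genes and, next to last, SmD2, a core splicing protein that fell by 0.65 on the log2 scale. The next, 13 genes on 3L from 16272909 to 16348782, held uncharacterised genes from CG13066 to CG4998 and ended in mRpS34, with a median of -7.59. The third, 11 genes on 2R from 11340513 to 11357537, held trypsin genes from etaTry to iotaTry and CG13202, with a median of 1.29. CG13202, below 1 CPM in every library, was no longer called without replicate 1 or 3 of day 3 or replicate 3 or 4 of day 4 (edgeR adjusted p of 0.0573, 0.0643, 0.0638 and 0.0527). Shorter runs held the lipases from CG6296 to CG6271 beside RYa-R on 3R (8 genes, median 2.12), the lysozymes LysB to LysS on 3L, the acyl-CoA binding protein genes Acbp4, Acbp6, Acbp3 and Acbp2 on 3L, and snoRNA clusters with their hosts. Members of such tandem families share sequence, so their counts are not independent of each other.

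**Figure D4:**
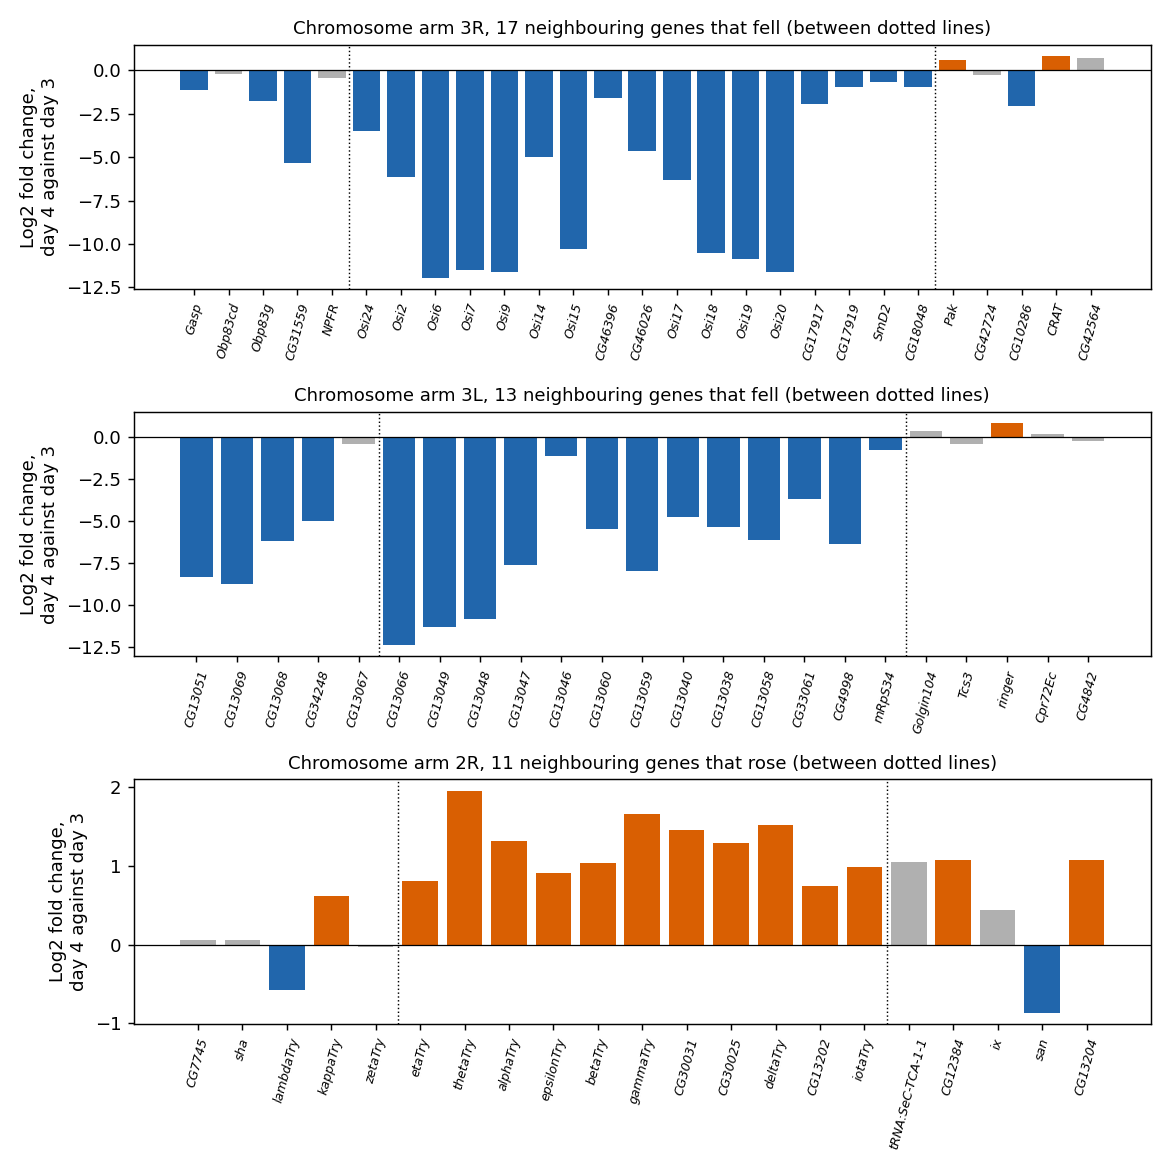
Log2 fold change, day 4 against day 3, along the 3 longest runs of neighbouring tested genes that shared a direction, in gene order, each with the 5 tested genes on either side. Orange bars rose, blue bars fell, grey bars were not called, and genes at 0 on day 4 are drawn at their lower bound, so bars of the Osiris run reach below -10 while SmD2 near its end stands at -0.65.

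By chromosome arm the shares were even: 15.7 to 18.6% of tested genes rose and 21.4 to 23.9% fell on 2L, 2R, 3L, 3R and X. The small chromosome 4 had 12.2% of 82 genes rising and 7.32% falling, and none of the 15 tested mitochondrial genes was called. Genes that rose had a median exon length of 1919.5 bases, those that fell 1770 bases, and those not called 2191 bases.

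Digestive enzymes were among the abundant genes that rose. Of 27 Jonah and trypsin proteases 22 rose and 1 fell (median 0.93; 16 and 1 under library totals), of 21 glycosidases 14 rose and 1 fell (9 and 2 under library totals), and of 11 secreted lipases 9 rose and none fell (median 1.75). The proteases took 5.33 ± 0.119% of counts on day 3 and 8.71 ± 0.649% on day 4 (exact permutation p = 0.0286, adjusted 0.0327). Among the starch- and sugar-cleaving enzymes Amy-d, an amylase that shares reads with its near-identical neighbour Amy-p, was at 400, 402, 369 and 385 CPM on day 3 against 1684, 1502, 2111 and 1698 CPM on day 4. LManVI, a lysosomal-type alpha-mannosidase, was the most abundant per length, at 7264 ± 290 TPM on day 3 and 9870 ± 355 TPM on day 4.

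Lysozymes, which in the fly midgut digest bacterial cell walls in food, rose in all 6 cases tested, with a median of 1.93. Their share of counts was 0.474, 0.512, 0.608 and 0.638% on day 3 and 1.67, 1.63, 1.67 and 1.72% on day 4 (exact permutation p = 0.0286, adjusted 0.0327). LysB, LysC, LysD and LysE are near-identical neighbours on 3L, and LysC overlaps LysD in the annotation, so their separate values are uncertain. LysS, more diverged, was at 937, 926, 727 and 810 CPM on day 3 against 2832, 3109, 4167 and 4436 CPM on day 4. LysX had the largest rise of any gene with at least 10 CPM and no overlap: 0.116, 0.0539, 0.0672 and 0.125 CPM on day 3 against 17.7, 18.8, 39.4 and 56.5 CPM on day 4, a log2 fold change of 8.46 ± 0.73 (adjusted p = 2.29e-08). Its day 4 libraries differed among themselves, replicates 1 and 2 being lowest. LysP was not tested, with 25 counts over the 8 control libraries.

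**Figure D5:**
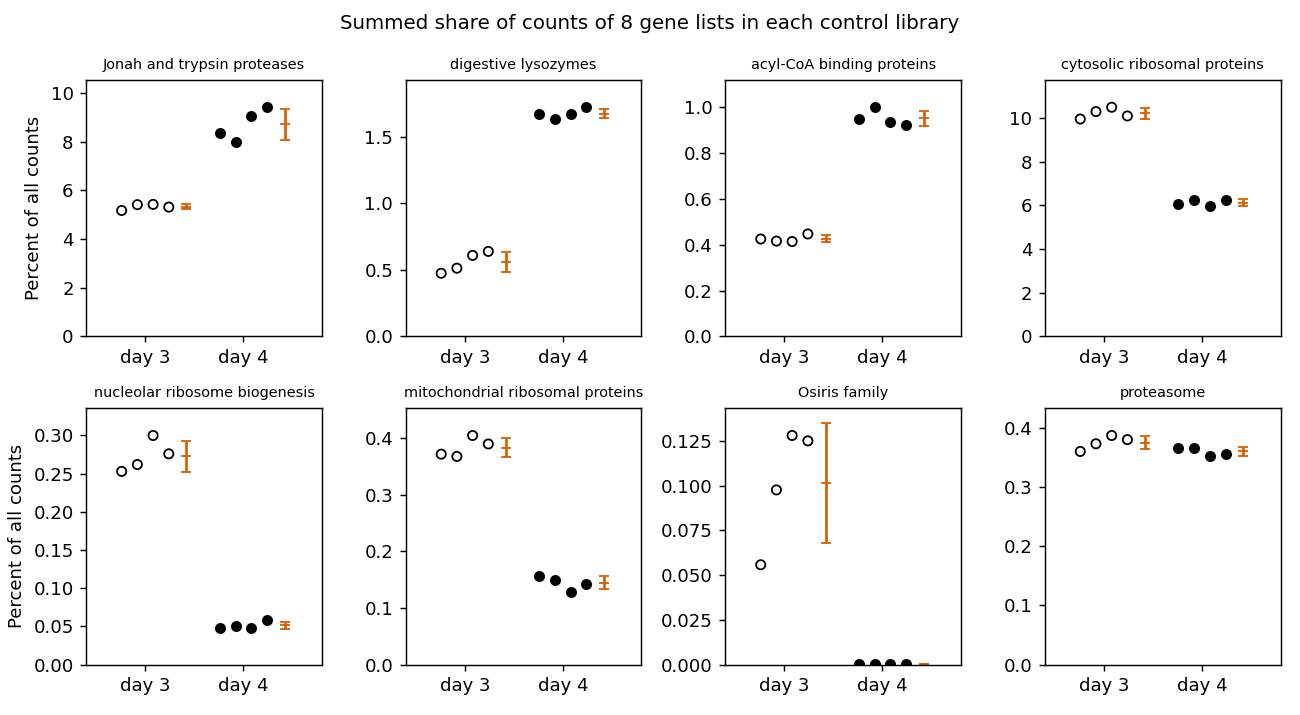
Summed share of all counts (percent, axes from 0) of 8 gene lists in each control library, open circles day 3 and filled circles day 4, replicates 1 to 4 from left to right, with mean and SD in orange. Proteases, lysozymes and acyl-CoA binding proteins stood higher on day 4, the ribosomal, nucleolar and Osiris lists lower, and the proteasome overlapped at 0.375 and 0.360%.

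The other genes with the largest rises were of mixed function. Ugt301D1, a UDP-glycosyltransferase, went from 0.283 ± 0.0468 to 27.3 ± 14.4 CPM, Jhbp14, a juvenile hormone binding protein family member, from 0.593 ± 0.112 to 36.2 ± 2.67 CPM, and Nplp4, annotated as a neuropeptide-like precursor, from 0.614 ± 0.311 to 30.2 ± 3.91 CPM. Tsf1, transferrin, which carries iron in the hemolymph, was at 0.481, 0.772, 0.303 and 0.626 CPM on day 3 against 27.1, 9.33, 27.1 and 28.8 CPM on day 4. Replicate 2 stood apart on day 4, well below the others. CG5162, a predicted lipase, rose from 0.647 ± 0.440 to 42.2 ± 4.68 CPM and CG33120 from 1.34 ± 0.463 to 71.2 ± 11.2 CPM.

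Several families of proteins that bind and carry lipids held rising members, while of 6 lipoprotein and lipoprotein assembly genes 1 rose, 16.7% beside the 17.0% of all genes. In the CD36 family of lipid receptors 6 of 13 rose and 2 fell (5 and 4 under library totals). ninaD, a scavenger receptor for carotenoid uptake, was at 89.5, 87.8, 98.4 and 91.3 CPM on day 3 against 2380, 2505, 2110 and 2370 CPM on day 4, and its neighbour CG31741 at 1.13, 0.808, 0.790 and 1.31 CPM on day 3 against 27.8, 29.8, 50.9 and 52.7 CPM on day 4. The days were far apart in both genes, with replicates 3 and 4 of day 4 above the rest in CG31741 and not in ninaD. Of 6 acyl-CoA binding proteins, which carry fatty acyl-CoA inside cells, 5 rose and none fell, together 0.425 ± 0.0153% of counts on day 3 and 0.952 ± 0.0354% on day 4 (exact permutation p = 0.0286, adjusted 0.0327). Acbp6 led them, from 397 ± 22.0 to 3418 ± 330 CPM. Of 8 Niemann-Pick type C genes of sterol transport 6 rose and 1 fell, Npc2c from 9.99 ± 2.67 to 51.6 ± 9.44 CPM and Npc2f from 28.1 ± 0.748 to 123 ± 7.92 CPM.

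Genes of lipid synthesis and of lipid breakdown were among those that rose. Of 10 triglyceride synthesis genes 7 rose and none fell (6 and 1 under library totals), of 8 droplet proteins and droplet lipases 6 and none under both scalings, and of 11 genes of fatty acid synthesis and elongation 7 and 2 (5 and 3 under library totals). In mitochondrial beta-oxidation 8 of 16 genes rose and none fell, against 3 and 1 under library totals and 7 and 1 without replicate 3 of day 4. In peroxisomal beta-oxidation 7 of 10 rose and 1 fell (5 and 1 under library totals). mino, a glycerol-3-phosphate acyltransferase at the first step of glycerolipid synthesis, was at 42.6, 56.9, 41.5 and 50.7 CPM on day 3 against 318, 345, 297 and 359 CPM on day 4. Men, malic enzyme, a source of the NADPH used by fatty acid synthesis, went from 215 ± 23.9 to 1056 ± 50.2 CPM, and FASN1, fatty acid synthase, from 703 ± 126 to 2392 ± 117 CPM. Lsd-1, perilipin 1 of lipid droplets, was at 6.78, 7.52, 5.13 and 7.01 CPM on day 3 against 78.0, 88.1, 129 and 132 CPM on day 4, and bmm, the triglyceride lipase that acts on those droplets, rose from 48.9 ± 4.33 to 127 ± 10.5 CPM.

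Genes of ecdysone action moved in both directions. Of 18 receptors and response factors 5 rose and 7 fell (4 and 9 under library totals). br (broad), an early response factor, was at 13.8, 12.9, 11.5 and 14.4 CPM on day 3 against 91.7, 92.6, 122 and 139 CPM on day 4. Sox14, a transcription factor induced by ecdysone, was at 8.20, 9.44, 8.32 and 7.51 CPM on day 3 against 36.0, 38.9, 78.9 and 74.6 CPM on day 4 (log2 fold change 2.77 ± 0.28, adjusted p = 1.83e-07). In both, replicates 3 and 4 of day 4 were above replicates 1 and 2, and EcR, the receptor, showed the same order (32.1, 31.5, 49.3 and 52.9 CPM), so the 4 pools of day 4 were not alike in these genes.

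Others of the ecdysone group fell. Hr4, a nuclear receptor that follows the ecdysone peak, was at 39.3, 46.1, 58.4 and 48.8 CPM on day 3 against 0.576, 0.722, 0.890 and 0.647 CPM on day 4, and ftz-f1, the competence factor expressed once ecdysone has declined, fell from 39.0 ± 5.67 to 13.2 ± 0.80 CPM. ImpL1, an ecdysone-inducible gene first found in imaginal discs, was at 8.02, 12.9, 24.1 and 17.1 CPM on day 3 against 0.0222, 0, 0 and 0 CPM on day 4. Oatp74D, the importer that lets ecdysone enter cells, was at 7.34, 7.95, 7.70 and 9.20 CPM on day 3 against 97.2, 93.4, 114 and 107 CPM on day 4, a log2 fold change of 3.67 ± 0.12 (adjusted p = 4.83e-13). In all 3 of 5 genes of ecdysone synthesis, uptake and clearance rose and 1 fell. EcR and ftz-f1 were chosen after their values were seen.

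Temporal identity factors changed with the instar. chinmo and Imp, known from neural stem cells and discs as markers of early stages, fell from 77.5 ± 4.66 to 44.3 ± 3.48 CPM and from 73.4 ± 2.23 to 44.3 ± 2.89 CPM, while Syp, known there as the late counterpart of Imp, rose from 48.1 ± 2.10 to 141 ± 8.75 CPM. None of the 3 overlapped between days, and in all 2 of 6 heterochronic genes rose and 3 fell. Of 19 insulin and TOR pathway genes 3 rose and 2 fell (2 and 5 under library totals), 15.8% and 10.5% beside the 17.0% and 22.2% of all genes. InR, the insulin receptor, fell from 24.6 ± 1.45 to 11.1 ± 1.28 CPM, Thor, the translation inhibitor 4E-BP, was at 248, 228, 335 and 184 CPM on day 3 against 37.3, 53.3, 102 and 83.1 CPM on day 4, and Pi3K21B, the adaptor of PI3 kinase, rose from 55.9 ± 5.15 to 123 ± 13.1 CPM. InR and Thor are both targets that FOXO activates. The foxo transcript, at 45.2 and 42.9 CPM, was not called, and the activity of FOXO was not tested.

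Few genes of central energy metabolism were called under TMM. Shares of counts, which are taken against library totals, went down for the tricarboxylic acid cycle from 0.941 ± 0.0319% to 0.637 ± 0.0502%. Those of the nuclear-encoded respiratory chain went from 2.81 ± 0.0333% to 2.02 ± 0.159%. Of 13 glycolysis genes 1 rose (Tpi, triosephosphate isomerase, 253 ± 4.59 to 395 ± 7.57 CPM) and 1 fell (Ldh), and of 66 nuclear-encoded respiratory chain genes 1 rose and 1 fell under TMM, with 17 falling under library totals. Ldh, lactate dehydrogenase, was at 100.03, 90.9, 104 and 92.2 CPM on day 3 against 49.7, 45.7, 96.4 and 45.5 CPM on day 4, where replicate 3 lay within the day 3 range. The call was lost without replicate 2 or replicate 4 of day 4 (edgeR adjusted p of 0.0545 and 0.0553). None of 13 mitochondrially encoded transcripts was called. In the tricarboxylic acid cycle 4 of 15 fell, 26.7% beside the 22.2% of all genes, and none rose (7 fell under library totals). The 4 were mAcon1, aconitase, from 1385 ± 28.0 to 905 ± 93.4 CPM, and the 3 subunits of NAD-dependent isocitrate dehydrogenase, Idh3a, Idh3b and Idh3g, with log2 fold changes of -0.58, -0.66 and -0.61. Pepck2, a phosphoenolpyruvate carboxykinase of gluconeogenesis, rose from 39.0 ± 2.27 to 200 ± 13.5 CPM.

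Chaperones were listed by compartment, and the compartments were not compared by a test. Of 13 heat shock proteins 5 fell and none rose, with Hsp60A, the mitochondrial chaperonin, going from 1380 ± 43.1 to 417 ± 28.8 CPM and Hsp83, the fly Hsp90, at 1041, 1195, 1276 and 993 CPM on day 3 and 784, 707, 569 and 424 CPM on day 4. Of 15 genes of the endoplasmic reticulum, where secreted enzymes fold, 3 rose and none fell (20% beside the 17.0% of all genes, and 1 rising under library totals): Gp93, Pdi and Cnx99A, Gp93 from 829 ± 52.0 to 1418 ± 62.6 CPM. Of 5 lysosomal proteases 3 rose and 1 fell, among them cathD, cathepsin D, at 122, 131, 132 and 132 CPM on day 3 against 322, 344, 530 and 518 CPM on day 4. Autophagy genes rose in 8 of 19 cases and fell in none under TMM (5 and 3 under library totals), with Atg8a, which coats the autophagosome, going from 127 ± 18.8 to 304 ± 36.8 CPM and Atg18b from 7.86 ± 0.266 to 27.6 ± 7.22 CPM. Drice, an effector caspase, rose from 8.34 ± 0.672 to 28.0 ± 6.89 CPM. Of the vacuolar proton pump, 2 of 24 genes rose and 3 fell, and Vha16-1, its membrane ring subunit, had a log2 fold change of -0.05 and was not called.

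Detoxifying enzymes included rising and falling members. Of 66 cytochrome P450 genes 35 rose and 6 fell (median 0.63; 28 and 8 under library totals). Cyp6t1 was at 4.06, 4.08, 3.56 and 3.68 CPM on day 3 against 51.9, 57.7, 66.4 and 55.6 CPM on day 4 (log2 fold change 3.91 ± 0.11, adjusted p = 1.53e-13), and Cyp12d1-p, a detoxifying P450 with a near-identical copy, went from 2.89 ± 0.254 to 17.5 ± 3.81 CPM. Of 30 UDP-glycosyltransferases 7 rose and 8 fell (1 and 11 under library totals), 23.3% and 26.7% beside the 17.0% and 22.2% of all genes. Ugt302E1 was at 114, 90.6, 126 and 97.4 CPM on day 3 against 21.9, 16.5, 6.03 and 6.99 CPM on day 4, where replicates 3 and 4 were lowest, the reverse of their place in Ugt301D1 (13.2, 16.5, 39.3 and 40.1 CPM on day 4). Of 32 glutathione S-transferases 8 rose and 5 fell, 25.0% and 15.6% beside the 17.0% and 22.2% of all genes, against 6 and 8 under library totals. GstD1, the most abundant per length, was at 1463 ± 65.6 and 1475 ± 122 CPM.

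Of 24 metal handling genes 12 rose and none fell, against 9 and 2 under library totals. Ctr1B, the copper importer of the midgut, was at 63.3, 61.8, 77.8 and 79.3 CPM on day 3 against 211, 239, 358 and 229 CPM on day 4. MtnA, a metallothionein that binds copper, rose from 363 ± 27.9 to 766 ± 57.4 CPM, and Zip99C, an iron transporter of the ZIP family in the fly, from 60.7 ± 4.21 to 161 ± 11.3 CPM. Among 16 carriers of amino acids and peptides 5 rose and 7 fell: acs (arcus) was at 3.23, 3.45, 3.40 and 3.27 CPM on day 3 against 65.4, 67.3, 90.5 and 76.4 CPM on day 4, sbm (sobremesa) rose from 27.4 ± 1.10 to 231 ± 26 CPM, and mnd (minidiscs), a leucine transporter subunit, fell from 13.8 ± 0.979 to 3.72 ± 0.391 CPM. None of 6 sugar transporters was called.

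Catalase (Cat), which breaks down hydrogen peroxide, rose from 1524 ± 53.4 to 3024 ± 46.7 CPM, while the peroxiredoxin Prx2 fell from 630 ± 25.2 to 324 ± 14.5 CPM. Of 17 genes of peptidoglycan recognition and the IMD pathway 7 rose and none fell (5 rose under library totals). pirk, which restrains IMD signalling, was at 47.7, 52.7, 63.9 and 91.5 CPM on day 3 against 147, 133, 148 and 141 CPM on day 4, and PGRP-SC1b, an amidase that degrades peptidoglycan and shares sequence with PGRP-SC1a, at 30.8, 41.9, 85.0 and 129.8 CPM on day 3 against 187, 282, 213 and 164 CPM on day 4. The day 3 libraries of both spread widely, with replicate 4 highest, and PGRP-SC1b was not called without replicate 1 or 2 of day 3 (edgeR adjusted p of 0.0541 and 0.0551). Of 5 tested antimicrobial peptide genes 4 rose, all below 4 CPM in every library, with AttD at 0, 0, 0.0336 and 0.188 CPM on day 3 against 2.57, 0.930, 0.640 and 3.04 CPM on day 4. In the JNK and JAK-STAT list 3 of 12 fell, 25.0% beside the 22.2% of all genes, and none rose. Among those that fell was Socs36E, a feedback inhibitor of JAK-STAT, at 66.2, 91.3, 86.9 and 47.5 CPM on day 3 against 11.5, 15.4, 54.0 and 16.6 CPM on day 4, with replicate 3 again inside the day 3 range.

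Of 16 factors of midgut identity 3 rose and none fell, 18.8% beside the 17.0% of all genes, the 3 being srp, esg and Sox21a, and GATAe, the GATA factor of the endoderm, was at 176 ± 2.38 and 168 ± 15.6 CPM. srp overlapped between days and fell below the fold minimum without replicate 2 of day 3 or of day 4 (0.44 and 0.46 on the log2 scale). esg and Sox21a mark precursors. esg rose from 5.85 ± 0.784 to 11.2 ± 0.660 CPM, and Sox21a was at 1.67, 1.45, 1.66 and 1.78 CPM on day 3 against 4.79, 4.68, 6.16 and 5.80 CPM on day 4. The days lay apart in both, at low levels. Sox100B, a further factor of midgut stem cells, rose from 1.36 ± 0.145 to 4.37 ± 0.741 CPM, while Delta, the Notch ligand, fell from 2.24 ± 0.443 to 1.37 ± 0.334 CPM. Of 16 Notch and EGFR pathway genes 8 rose and 1 fell, against 4 and 3 under library totals and 6 and 2 without replicate 3 of day 4, and of 7 progenitor markers 4 rose and 1 fell. The summed progenitor markers took 0.00195 to 0.00243% of counts on day 3 and 0.00278 to 0.00349% on day 4. Enteroendocrine peptides were near the scaling shift: 4 of 14 rose and none fell under TMM, and none rose and 4 fell under library totals. CCHa2, a nutrient-responsive peptide hormone, was at 55.1, 56.4, 57.6 and 58.5 CPM on day 3 against 97.9, 98.3, 92.2 and 86.9 CPM on day 4.

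Of 10 genes of activin signalling and sugar sensing 2 rose and none fell, 20% rising beside the 17.0% of all genes. The 2 were activin ligands with at least 10 CPM. daw (dawdle), which responds to sugar, rose from 30.3 ± 2.01 to 57.1 ± 10.1 CPM and myo (myoglianin) from 19.6 ± 1.85 to 36.4 ± 0.666 CPM. Of 15 septate junction and polarity genes 3 rose and 1 fell, 20% and 6.67% beside the 17.0% and 22.2% of all genes. Tsp2A, a tetraspanin of smooth septate junctions, rose from 132 ± 8.24 to 192 ± 10.6 CPM, its partner Ssk was at 307 ± 19.7 and 337 ± 14.6 CPM and was not called, and l(2)gl, a polarity regulator, fell from 462 ± 9.28 to 321 ± 10.4 CPM. In the cytoskeleton Act42A, a cytoplasmic actin, was at 158, 165, 165 and 169 CPM on day 3 against 910, 853, 1035 and 906 CPM on day 4, while Act5C, the most abundant actin per length, was at 9020 ± 387 and 10068 ± 481 CPM and was not called. Of the clock genes 4 of 7 rose and 1 fell, and vri (vrille) was at 9.73, 15.2, 11.9 and 6.43 CPM on day 3 against 11.3, 15, 40.4 and 40.3 CPM on day 4, so the days overlapped and the rise lay in replicates 3 and 4. Of 8 Hox genes and cofactors 2 fell, 25.0% beside the 22.2% of all genes (4 under library totals, 1 without replicate 3 of day 4). The most highly expressed, lab, exd and hth, were not called.

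Among non-coding genes, long non-coding RNAs leaned to rises under TMM, with 42 of 198 rising and 15 falling (median 0.26), and not under library totals, with 22 and 24. Without replicate 3 of day 4 these were 34 and 12. Antisense RNAs rose in 22 of 93 cases and fell in 4 (14 and 8 under library totals), but the strand setting of the counting is not stated in the sources used, so their reads may belong to the gene on the other strand. lncRNA:CR44138 was at 407, 364, 496 and 379 CPM on day 3 against 176, 193, 257 and 215 CPM on day 4. lncRNA:CR42491 fell from 33.1 ± 5.69 to 9.89 ± 1.01 CPM and lncRNA:CR45102, the neighbour of Mnt on the X chromosome, rose from 7.07 ± 0.404 to 19.5 ± 0.906 CPM.

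Markers of the surrounding tissue were examined across the same libraries. Of 16 visceral muscle markers 1 fell under TMM and 6 under library totals, and none rose. Basement membrane genes fell in 4 of 8 cases and rose in 1: the collagen IV chains Col4a1 and vkg, made largely by fat body and hemocytes, fell from 13.4 ± 1.75 to 3.70 ± 1.46 CPM and from 10.5 ± 1.41 to 2.59 ± 1.39 CPM, and trol, perlecan, from 506 ± 54.7 to 319 ± 34.4 CPM. None of 6 neuronal markers was called (3 fell under library totals), and no salivary gland marker passed the filter. Fat body markers rose in 3 of 8 cases with all libraries and in none without replicate 3 of day 4, while 4 of 7 hemocyte markers rose and 2 fell, against 2 and 2 without that library and 1 and 2 under library totals. The scavenger receptor gene crq had the highest CPM of those that rose, at 193 CPM on day 3 and 409 CPM on day 4, and those that fell were Col4a1 and vkg. Of 2 tested Malpighian tubule markers Drip, a water channel, fell from 108 to 75.1 CPM, though not without replicate 3 of day 4. The other had a log2 fold change of 0.98 and was not called. The summed share of the tubule markers went from 0.0116 ± 0.0006% to 0.00663 ± 0.000917% of counts. The part of attached tissue in these values was not tested.

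Which of these changes depended on Hnf4 in enterocytes was asked with the interaction, the day step in Hnf4i minus that in control. It was called for 493 genes, 5.03% of those tested, 254 with a more positive and 239 with a more negative step in Hnf4i. Of the 1668 genes that rose in control 210 were among them, 131 with a smaller rise, and of the 2176 that fell 80, 41 with a smaller fall. Both contrasts use the same control libraries, so the overlap is a count and not evidence. ninaD, CG31741 and CG18179 had smaller steps, with interactions of -1.24 (adjusted p = 0.000268), -2.83 (adjusted p = 0.000409) and -1.72 (adjusted p = 3.12e-06), as did acs (-1.72), mino (-1.70), Men (-1.41), Amy-d (-1.24), LManVI (-1.03), Nplp4 (-1.75), Jhbp14 (-1.15), Cht4 (-0.67), Cnx99A (-0.73) and MtnA (-0.56).

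Steps that differed the other way included Thor, where a log2 fold change of -1.85 in control stood against 0.10 in Hnf4i (interaction 1.95, adjusted p = 0.00579), Ldh (1.95, adjusted p = 0.00147), Socs36E (2.47, adjusted p = 0.0316), lncRNA:CR44138 (1.52, adjusted p = 0.000105), Npc2f (0.79, adjusted p = 0.000671) and Prx2 (0.50, adjusted p = 0.00122). For the growth genes the 2 genotypes were close: the log2 fold change of Myc was -2.03 in control and -2.15 in Hnf4i (interaction -0.12 ± 0.19), and Fib changed by -3.23 and -3.21 (interaction 0.02 ± 0.26). The same was seen for Osi15, at -10.30 and -10.47 (interaction -0.17 ± 0.66), Cyp6t1, at 3.91 and 3.85 (interaction -0.06 ± 0.14), and Oatp74D, at 3.67 and 3.46 (interaction -0.22 ± 0.15). None of these 5 interactions passed the test, and the errors give the size of difference that could have gone unseen.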

How the data were processed

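The deposited table held raw read counts per gene for 16 libraries. Per the labels and methods, the authors pooled dissected midguts, made stranded polyA libraries, trimmed reads with Trimmomatic 0.39 and aligned them with STAR 2.7.10b to BDGP6 (tool versions from the submitters' processing notes). Salmon is among the programs listed with the paper but is not tied to this table, and the strand setting is not given in the sources used here. Of the other deposited tables, one holds CPM values that the authors computed from those counts (recomputed here to within 4.91e-11), and one the authors' DESeq2 fold changes and p-values, which were not used. Rows without a gene identifier (6381 of 24254) were left out. Genes kept by filterByExpr (minimum count 10, minimum total 15) were fitted in edgeR 4.0.16 by quasi-likelihood with TMM factors, group as the only term and Benjamini-Hochberg adjustment over 9801 genes. The fit was tested on simulated data. The 4 libraries of a group are labelled biological replicates. Named genes were the 10 largest changes per direction in log2 fold and in TPM (at least 10 CPM on 1 day for folds, no overlap), the 5 most abundant per length, up to 4 members per list, members of lists of 10 or fewer, and day-specific genes and genes of the 3 longest runs. E2f1, Dp, foxo, and the neighbours or close copies named in passing were chosen after their values were seen, as said of others in the text. Folds against a day at 0 use a floor of 3 counts per library. The genes and lists were chosen with earlier results of these data known. Alternatives were 25 refits, with library totals added after seeing the data. Shares of all lists were compared by exact two-sided permutation, and the adjustment covers only the 8 shares given with a p. Chromosome positions are from Ensembl release 115 (BDGP6).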

Additional observations from a re-analysis of the deposited data

Results flagged for a closer look

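Of 349 sets of 4 libraries examined (the genes named above on each day and the 8 summed shares), 18 had a library far from the other 3 by Dixon's criterion, close to the 1 in 20 that chance gives. On day 3 they were replicate 1 in obst-A (7.99 CPM), CG14147 (66.9 CPM), CG32548 (15.1 CPM), cathD (122 CPM) and vkg (8.39 CPM), replicate 2 in Max (12.2 CPM), Dp (67.6 CPM), Prx2 (668 CPM) and lab (23.5 CPM), and replicate 4 in Mcm2 (14.8 CPM) and Acbp3 (806 CPM). On day 4 they were replicate 2 in serp (3.98 CPM) and Tsf1 (9.33 CPM), and replicate 3 in nub (63.3 CPM), Uhg5 (4.87 CPM), trh (2.44 CPM), Ldh (96.4 CPM) and Socs36E (54.0 CPM). Their cause was not tested.

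The step between days differed between genotypes by edgeR's interaction test for 26 of the named genes. Besides the 19 given in the report these were mex1 (0.59), Cht9 (-0.73), iotaTry (-0.63), CG13202 (-1.45), Acbp4 (0.55), Amy-p (-0.66) and Pepck2 (-0.52), as the log2 step in Hnf4i minus that in control. The 19 were CG18179 (-1.72), Cht4 (-0.67), Amy-d (-1.24), LManVI (-1.03), Jhbp14 (-1.15), Nplp4 (-1.75), ninaD (-1.24), CG31741 (-2.83), Npc2f (0.79), mino (-1.70), Men (-1.41), Thor (1.95), Ldh (1.95), Cnx99A (-0.73), MtnA (-0.56), acs (-1.72), Prx2 (0.50), Socs36E (2.47) and lncRNA:CR44138 (1.52).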

How the results depend on the processing

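Library totals without TMM, chosen after seeing the data, moved the counts of genes past a factor of 1.5, to 901 that rose and 3361 that fell, through the shift of the median gene by -0.29. The other alternatives stayed within that factor, from 1121 (test against the fold minimum) to 1688 that rose and from 1653 to 2295 that fell. Without 1 library in turn, 1570 to 1688 rose, 2101 to 2201 fell, and 196 to 309 interactions were more positive and 196 to 278 more negative in Hnf4i. Of 181 named genes, 154 kept their side of the threshold under every alternative, and none called changed sign. Replicate numbers did not pair the samples across days: correlations of same-numbered control libraries ran from -0.0293 to 0.011, and 1 of 4 correlated best with its own number. Within each day, replicates 1 and 2 and replicates 3 and 4 were the closest pairs. Their chi-square per gene was 16.86 and 19.52 on day 3, against 35.66 to 48.94 for the other pairs. On day 4 it was 33.82 and 17.94, against 42.95 to 89.28. The cause was not tested, and the tests treated the 4 libraries of a day as independent. The replicate block gave 1657 that rose, 2158 that fell, and interactions of 255 and 229. Genes of few counts are the least certain, and intervals cover the spread between libraries only.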
